A study of Corbicula fluminea with 24 samples.

Results

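The comparison described here sets the digestive gland of Asian clams (Corbicula fluminea, a freshwater bivalve) caged below a wastewater treatment plant (WWTP) against the same gland of clams caged at a reference site. Membership follows the location given in the labels, which puts 8 libraries at the WWTP site and 8 at the reference site, 16 of the 24 libraries in the study. The remaining 8 come from clams caged below an urban runoff effluent; they entered the statistical fit and are otherwise given only beside WWTP and reference values. Caging ran over one winter, from December to March. The labels give neither strain, sex, age nor any added agent, and all groups share the caging. Each library is 1 clam, with 1 caging per site, so site cannot be told apart from cage and p-values measure the spread between animals.

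The digestive gland of bivalves takes up and digests filtered particles, stores lipid, and is the main organ in which foreign compounds and metals are handled. Foreign compounds are commonly oxidised or reduced by enzymes such as cytochrome P450s and dehydrogenases (phase I) and then conjugated, for example to glutathione or a methyl group (phase II). Bivalves rely on innate immunity, with large families of lectins and fibrinogen-domain proteins that bind sugars on microbes. In bulk tissue fewer cells of a type and less RNA per cell cannot be told apart.

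The table held read counts for 58291 assembled contigs, of which 1582 carried a gene symbol (1112 distinct symbols), 19410 a locus name and 37299 a number alone. After removal of contigs with low counts 57593 were tested, 1568 of them with a symbol. The table pairs the symbols with no species or description, so roles below are those of genes of that name in other animals, mostly vertebrates. Where contigs share a name, as shown by endings such as 2.2, their reads may have been divided among them, which makes their values less certain. Levels are read counts scaled to library size (CPM), with TMM factors that offset differences in composition. They are not corrected for contig length and are therefore compared between clams and not between genes.

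Library totals were 60.4 M ± 12.7 (SD, n = 8) in WWTP and 71.0 M ± 8.06 in reference clams, ranging from 40.4 M to 85.1 M, with 4 libraries of each site in each of 2 sequencing lanes. The totals did not differ beyond the spread between clams (two-sided exact permutation p = 0.0651; within lane 3 p = 0.257, within lane 4 p = 0.114). WWTP libraries had more contigs with 0 counts, 278 ± 147 (SD, n = 8) against 139 ± 41.3 (exact permutation p = 0.00793, 0.0476 after Benjamini-Hochberg adjustment over 6 library measures; lane 3 p = 0.0286, lane 4 p = 0.229). With all libraries thinned to the smallest total the numbers were 349 ± 180 and 211 ± 63.9 (exact permutation p = 0.0614). Defining markers of the gland were present. The 18 digestive gland markers, among them the amylase Amy.1.2 and the endoglucanase GUN, summed to between 833 and 4787 CPM in WWTP clams (median 3107) and between 480 and 3317 CPM in reference clams (median 2349). None of the 18 was at 0 in all 16 libraries, and none was called between the sites. The first principal component of all libraries held 58.8% of the variance, and its position did not differ between the sites (exact permutation p = 0.438).

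Between WWTP and reference clams 846 contigs, 1.47% of those tested, had a Benjamini-Hochberg adjusted p under 0.05 by the quasi-likelihood test of edgeR, and are termed called. Of these 584 were higher in WWTP clams (1.01%) and 262 lower (0.455%). This split depended on the scaling: by library totals alone, in place of TMM factors that offset differences in composition, the median log2 difference of all contigs was -0.16 and not 0.01, and 38 contigs were higher and 127 lower. Without WWTP individual 46 the number called was 206. Most changes were small, with a median log2 fold change (FC, WWTP over reference) of 0.59 among contigs that rose and -0.66 among those that fell, and 80 rose and 44 fell by more than 2-fold. The share called was 1.47% of contigs with a symbol, 1.54% of those with a locus name and 1.43% of those with a number. The calls varied with abundance. They took in 0.528% of contigs under 1 CPM, 1.45% of those from 1 to 10 CPM, 2.32% of those from 10 to 100 CPM and 1.46% of those above 100 CPM. Contigs above 100 CPM had a median log2 FC of 0.24 and 79.1% of them were positive, beside a median of 0.01 and 51.0% over all contigs. Whether this class differs from the rest beyond the spread between clams was not tested. Values of the 8 WWTP and 8 reference libraries did not overlap for 203 contigs (0.352%), 129 with WWTP higher and 74 with WWTP lower.

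Of the symbols 17 rose and 6 fell. Those that rose include nucleolar and RNA-binding proteins, an acute-phase protein, a glutathione transferase and the enzyme that makes S-adenosylmethionine. They also include a subunit of the channel into the endoplasmic reticulum and a subunit of the enzyme that attaches sugar chains to asparagine. Those that fell include an NF-kB subunit, a ubiquitin ligase, a respiratory chain assembly factor, seipin and a fibrinogen-domain receptor. Each of the 23 had the same sign within lane 3 and within lane 4, as did 845 of all 846 called contigs. The lanes are parts of the libraries that gave the calls, so this is no independent check. At 4 against 4 libraries no symbol was called within a lane by edgeR, with 105 symbols at unadjusted p below 0.05 in lane 3 and 154 in lane 4, and no other tool was run there. The difference between the lanes in the site effect was called for 0 contigs (edgeR interaction term, 2282 contigs or 3.96% at unadjusted p below 0.05). WSCD2, METK2, NUCL, Safb and RELB were called in each of 24 fits that left out 1 library. The other 18 lost the call in at least 1 of these fits, and all 18 lost it without WWTP individual 46.

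**Figure D1:**
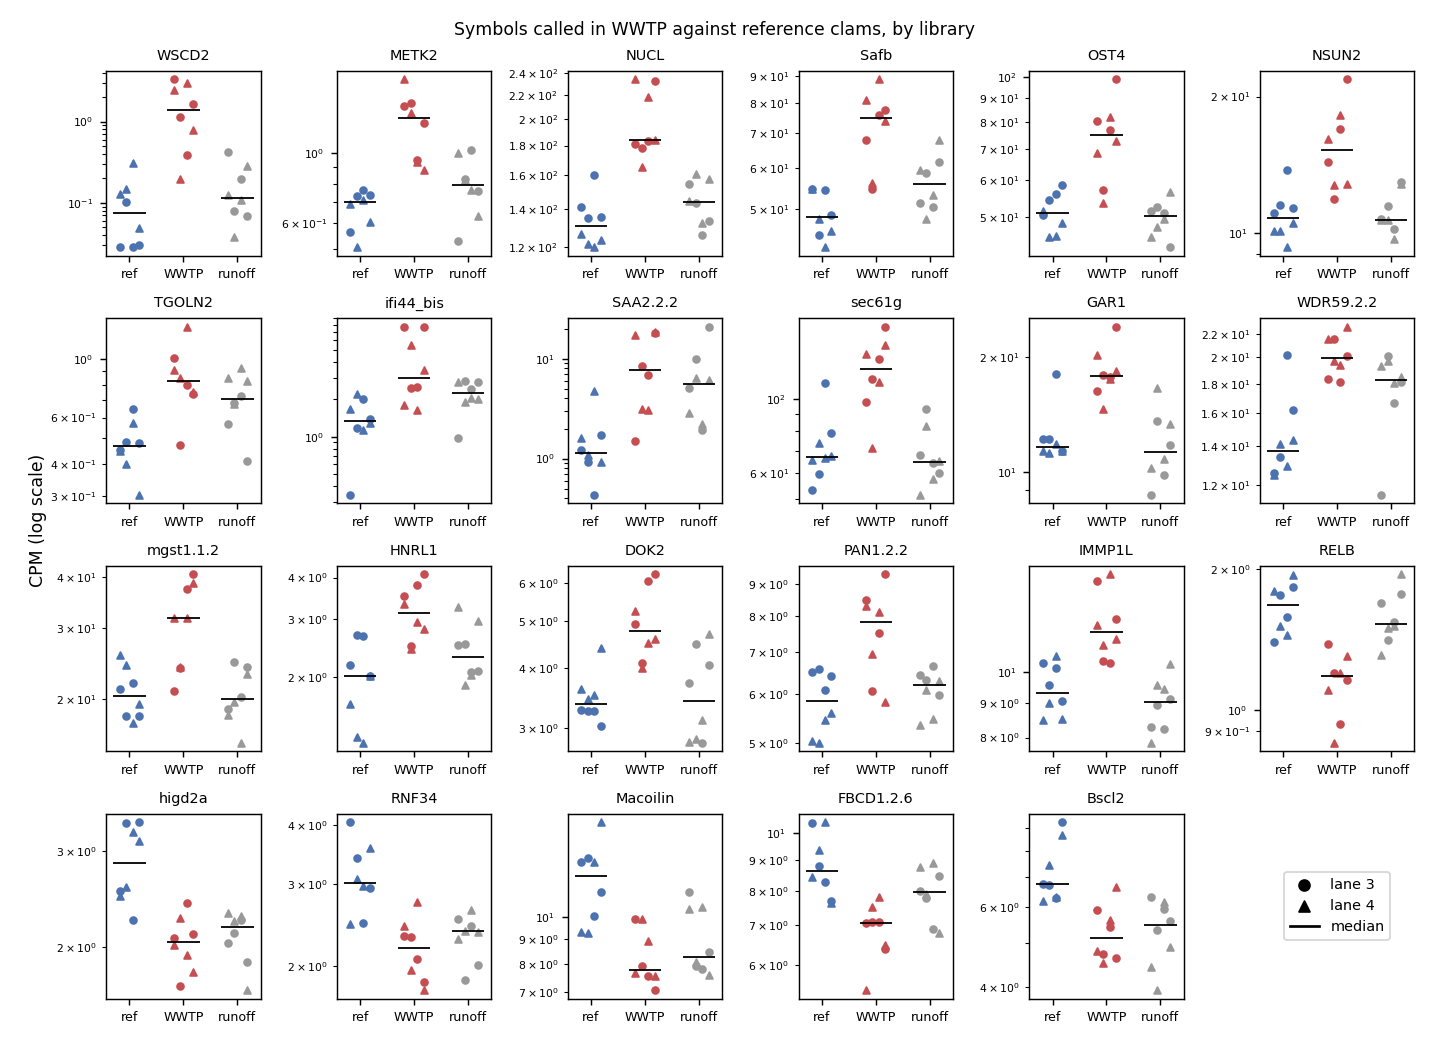
CPM of the 23 called symbols in each library (log axis, separate for each panel) at the reference, WWTP and runoff sites, with circles for lane 3, triangles for lane 4 and a bar at the median. For METK2, NUCL and RELB the WWTP and reference points do not overlap; in each other panel at least 1 clam of one site lies within the range of the other.

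With TMM factors METK2 separated the WWTP from the reference clams fully. With scaling by library totals alone it was not called and the sites overlapped. WWTP individual 48 then had 59 reads in 78.8 M, below reference individual 30 with 66 in 72.3 M. This S-adenosylmethionine synthase, which makes the methyl donor used by most methyltransferases, lay between 0.886 and 1.71 CPM in WWTP clams (median 1.29) and between 0.504 and 0.763 CPM in reference clams (median 0.7). All 8 WWTP clams stood above every reference clam. Its log2 FC was 0.90 (± 0.155 SE, edgeR adjusted p = 0.00834), on counts of 47 to 99 reads per WWTP library. In runoff clams it was 0.796 ± 0.167 CPM (SD, n = 8), and WWTP exceeded runoff with a log2 FC of 0.63 (edgeR adjusted p = 0.0467; 1.06% of contigs were called between these sites, which share the WWTP libraries). NSUN2, a methyltransferase that puts methyl groups on cytosines of tRNA and other RNA, and a member of the RNA-binding list, rose from a median of 10.8 CPM (9.31 to 13.8) to 15.2 CPM (11.9 to 21.9), with 5 of 8 WWTP clams above the highest reference clam (log2 FC 0.51 ± 0.114 SE, edgeR adjusted p = 0.0279). MTND, a dioxygenase of the methionine salvage route, was not called, at 25.8 ± 4.46 against 34.5 ± 7.65 CPM (SD, n = 8; log2 FC -0.42, edgeR adjusted p = 0.1).

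Nucleolar and RNA-binding proteins held the most called symbols of the 26 role lists. Those lists were drawn up with earlier results of these data known, so this ranking is only a description. Of 51 RNA-binding members tested 5 rose (9.8%, beside 1.01% of all contigs) and none fell (beside 0.455%). At unadjusted p below 0.05, 18 were higher (35.3%) and 1 lower (1.96%), beside 7.77% and 6.77% of all contigs. The median log2 FC of the list was 0.19, beside 0.01 over all contigs. NUCL, nucleolin, which takes part in the making of ribosomal RNA, ranged from 165 to 235 CPM in WWTP clams (median 184) and from 120 to 160 CPM in reference clams (median 131). With TMM factors no reference clam reached the lowest WWTP clam (log2 FC 0.57 ± 0.112 SE, edgeR adjusted p = 0.0174). With scaling by library totals alone NUCL was not called. Reference individual 20 then lay above WWTP individual 48, at 9970 reads in 60.8 M against 12278 in 78.8 M. GAR1, of the particle that guides pseudouridylation of RNA, ranged from 14.6 to 23.9 CPM (median 17.8) against 11.2 to 18 CPM (median 11.6). A single reference clam, individual 25, lay inside the WWTP range of GAR1 (log2 FC 0.56 ± 0.13 SE, edgeR adjusted p = 0.0314). Safb, a scaffold attachment factor that binds RNA and chromatin, ranged from 54.6 to 88.9 CPM (median 74.7) against 42.1 to 54.7 CPM (median 48.2), and a single WWTP clam lay within the reference range (log2 FC 0.55 ± 0.113 SE, edgeR adjusted p = 0.0204). HNRL1, a heterogeneous nuclear ribonucleoprotein of the U type, rose from a median of 2.02 to 3.13 CPM (log2 FC 0.68 ± 0.163 SE, edgeR adjusted p = 0.0358). The splicing factor PHF5A missed the threshold, at 31.1 ± 4.14 against 21.9 ± 4.14 CPM (SD, n = 8; log2 FC 0.51, edgeR adjusted p = 0.0597).

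Ribosomal proteins and translation factors gave no called member among 42 tested. At unadjusted p below 0.05, 11 were higher (26.2%) and 0 lower, beside 7.77% and 6.77% of all contigs. The smallest p among them was that of Rpl31.1.3, a protein of the large ribosomal subunit, at 7.59 ± 2.43 against 4.80 ± 1.19 CPM (SD, n = 8; log2 FC 0.66, edgeR adjusted p = 0.125). RL37A stood at 36.6 ± 11.5 against 23.3 ± 8.37 CPM and the initiation factor IF4B at 29.7 ± 5.6 against 23.1 ± 3.43 CPM. With libraries scaled by their totals alone, the median log2 FC was 0.01 for the RNA-binding list, -0.00107 for the ribosomal list and -0.16 for all contigs, so that both lists were at about 0 while all contigs moved down.

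Proteins of entry into the endoplasmic reticulum and of glycosylation gave 2 rises among 21 members tested (9.52%, beside 1.01% of all contigs) and no fall. The median log2 FC was -0.09 with 23.8% positive. sec61g, a subunit of the channel through which new proteins enter the endoplasmic reticulum, ranged from 71.1 to 166 CPM in WWTP clams (median 124) and from 53.3 to 112 CPM in reference clams (median 66.9). The highest reference clam, individual 25, stood well above the other 7 (log2 FC 0.76 ± 0.174 SE, edgeR adjusted p = 0.0304). OST4, a small subunit of the enzyme that attaches sugar chains to asparagine, ranged from 53.6 to 99.1 CPM (median 75.0) against 45.2 to 58.6 CPM (median 50.9), with 6 of 8 WWTP clams above all reference clams (log2 FC 0.53 ± 0.115 SE, edgeR adjusted p = 0.0252). Runoff clams had OST4 at 43.0 to 56.5 CPM, and sec61g at 51.4 to 93.3 CPM. Further along the secretory route, TGOLN2, a protein of the trans-Golgi network, rose from a median of 0.466 to 0.824 CPM (log2 FC 0.86 ± 0.192 SE, edgeR adjusted p = 0.0279). Macoilin, which sits in the endoplasmic reticulum membrane, fell from a median of 12.1 CPM (9.25 to 15.8) to 7.78 CPM (7.05 to 9.93), with 6 of 8 WWTP clams below the lowest reference clam (log2 FC -0.52 ± 0.121 SE, edgeR adjusted p = 0.0323). tex264, a receptor that directs endoplasmic reticulum to degradation, was not called at 6.89 ± 1.04 against 9.17 ± 2.07 CPM (SD, n = 8; edgeR adjusted p = 0.0971).

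Among genes that handle foreign compounds 1 of 28 rose (3.57%, beside 1.01% of all contigs) and none fell. The list had a median log2 FC of 0.42 with 82.1% of members positive, and 7 were higher (25.0%) and 2 lower (7.14%) at unadjusted p below 0.05, beside 7.77% and 6.77% of all contigs. The called member was mgst1.1.2, a membrane-bound glutathione S-transferase of phase II, at 20.9 to 40.7 CPM in WWTP clams (median 31.7) and 17.4 to 25.6 CPM in reference clams (median 20.3). Of the WWTP clams 5 lay above all reference clams (log2 FC 0.58 ± 0.14 SE, edgeR adjusted p = 0.0358), and runoff clams ranged from 15.6 to 24.7 CPM. Neither of the other contigs of the name was called. Of these mgst1.2.2 was higher and varied widely, at 143.1 ± 84.0 against 79.4 ± 58.8 CPM (SD, n = 8; log2 FC 0.85 ± 0.628 SE, edgeR adjusted p = 0.609), and MGST1 was lower, at 14.9 ± 4.65 against 17.7 ± 5.11 CPM (SD, n = 8). ADHX.2.2, a class III alcohol dehydrogenase that clears formaldehyde, was not called (log2 FC 2.04 ± 0.593 SE, edgeR adjusted p = 0.0824), with medians of 51.9 CPM in WWTP and 14.7 CPM in reference clams and 111 ± 89.1 CPM (SD, n = 8) in runoff clams. Across the 24 libraries it ran with contig_27540, a contig without a symbol, at r = 0.97, given as a description. With libraries scaled by totals alone the list's median was 0.24 and 67.9% of members were positive.

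Among 98 immune recognition genes 1 rose and 1 fell, 2.04% together, near the 1.47% called over all contigs. At an unadjusted p under 0.05 the list had 1 member higher (1.02%) and 13 lower (13.3%), beside 7.77% and 6.77% of all contigs. SAA2.2.2, serum amyloid A, an acute-phase protein of vertebrates, ranged from 1.5 to 18.5 CPM in WWTP clams (median 7.68) and from 0.432 to 4.70 CPM in reference clams (median 1.15). It rose (log2 FC 2.60 ± 0.589 SE, edgeR adjusted p = 0.0294), with 5 WWTP clams above all reference clams. Runoff clams spanned 1.94 to 20.9 CPM, close to the WWTP range (WWTP over runoff log2 FC 0.46, edgeR adjusted p = 0.819). The second contig of the name, SAA2.1.2, was not called at 6.16 ± 7.18 against 3.31 ± 3.28 CPM (SD, n = 8). FBCD1.2.6, a fibrinogen-domain receptor for acetylated sugars, fell from a median of 8.63 CPM (7.63 to 10.4) to 7.07 CPM (5.44 to 7.81), with 7 of 8 WWTP clams below the lowest reference clam (log2 FC -0.37 ± 0.0886 SE, edgeR adjusted p = 0.0347). Fcer2.1.3, named for a lectin-type receptor of immunoglobulin E in mammals, stood at 3.08 ± 1.4 against 7.22 ± 2.11 CPM (SD, n = 8; log2 FC -1.23 ± 0.326 SE, edgeR adjusted p = 0.057), and 4 WWTP clams lay below the lowest reference clam. The other 6 contigs of that name ran from -1.04 to 0.53 on the log2 scale, with 4 negative. FGL2.3.3, fibrinogen-like, had a log2 FC of -2.01 (edgeR adjusted p = 0.191) in which reference individual 30 stood apart, at 28.8 CPM beside a reference median of 0.762 CPM.

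Of 58 interferon-type and antiviral genes 1 rose (1.72%, beside 1.01% of all contigs) and 1 fell (1.72%, beside 0.455%). RELB, an NF-kB subunit that regulates immune and inflammatory genes, ranged from 0.851 to 1.38 CPM in WWTP clams (median 1.18) and from 1.4 to 1.94 CPM in reference clams (median 1.67), and no clam of one site fell within the range of the other. It fell with a log2 FC of -0.54 (± 0.11 SE, edgeR adjusted p = 0.0209), and runoff clams stood at 1.31 to 1.95 CPM. ifi44_bis, named for a protein induced by interferon in vertebrates, rose from a median of 1.35 CPM (0.339 to 2.21) to 3 CPM (1.65 to 7.72). The high ones were WWTP individuals 33, 46 and 41, the latter pair at 7.65 and 5.50 CPM (log2 FC 1.55 ± 0.35 SE, edgeR adjusted p = 0.0291). Its call was not made by limma-voom (adjusted p = 0.0599), and the further contig IFI44 was not called (log2 FC 0.22). DOK2, an adaptor below tyrosine kinases in blood cells of mammals that is in none of the role lists, rose from a median of 3.36 to 4.77 CPM (log2 FC 0.51 ± 0.126 SE, edgeR adjusted p = 0.0404). In the same list stat4 and irf2, transcription factors of interferon signalling, were not called (0.59 and 0.66 log2, edgeR adjusted p = 0.153 and 0.168). Markers of haemocytes, the blood cells of bivalves, summed to between 129 and 706 CPM in WWTP clams (median 401) and between 106 and 435 CPM in reference clams (median 228). A large part was the big defensin BDEF.1.2, with a mean of 152.5 CPM over the 16 libraries. The sum was lowest in WWTP individuals 33 and 41 and reference individuals 20, 21 and 30, and highest in WWTP individual 46. The same held for the digestive gland markers, so the sum does not measure haemocytes alone. Of the 11 haemocyte markers none was called and none was at 0 in all 16 libraries. At unadjusted p below 0.05, 2 were higher (18.2%) and 2 lower (18.2%), beside 7.77% and 6.77% of all contigs. The integrin ITGA9.2.2 had the smallest p (log2 FC 0.78, edgeR adjusted p = 0.0514), while its further contig ITGA9.1.2 and the integrin ITA9 had negative values (log2 FC -0.93 and -0.26, edgeR adjusted p = 0.311 and 0.308). Their part in the immune values was not tested.

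Calls in protein turnover, mitochondria and lipid were few and had both signs. RNF34, a ubiquitin ligase, fell from a median of 3.02 CPM (2.46 to 4.07) to 2.19 CPM (1.77 to 2.74), with 7 of 8 WWTP clams below the lowest reference clam (log2 FC -0.52 ± 0.113 SE, edgeR adjusted p = 0.0262). It was the 1 called member of 33 in the ubiquitin and proteasome list (3.03%, beside 0.455% of all contigs called lower). In that list PSA4, a proteasome core subunit, stood higher without a call, at 75.9 ± 11 against 54.5 ± 7.57 CPM (SD, n = 8, edgeR adjusted p = 0.0604). higd2a, an assembly factor of the respiratory chain, fell from a median of 2.86 to 2.05 CPM (log2 FC -0.49 ± 0.103 SE, edgeR adjusted p = 0.0213), and runoff clams had a median of 2.17 CPM. IMMP1L, a subunit of the peptidase of the inner mitochondrial membrane, rose from a median of 9.32 CPM (8.48 to 10.5) to 11.4 CPM (10.3 to 13.9), which is the smallest change among the called symbols (log2 FC 0.31 ± 0.0798 SE, edgeR adjusted p = 0.0471). Bscl2, seipin, which shapes lipid droplets, fell from a median of 6.75 CPM (6.19 to 9.26) to 5.12 CPM (4.53 to 6.65), and 7 of 8 WWTP clams lay below the lowest reference clam (log2 FC -0.44 ± 0.114 SE, edgeR adjusted p = 0.049). WDR59.2.2, a part of the GATOR2 complex that relays amino acid supply to growth signalling, rose from a median of 13.8 to 19.9 CPM (log2 FC 0.47 ± 0.111 SE, edgeR adjusted p = 0.0322). Its second contig, WDR59.1.2, had the same sign without a call (log2 FC 0.39, edgeR adjusted p = 0.0957). PAN1.2.2 rose from a median of 5.83 to 7.81 CPM (log2 FC 0.38, edgeR adjusted p = 0.0459), and PAN1.1.2 had the same sign without a call (log2 FC 0.45).

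WSCD2, named for a membrane protein with WSC domains, had the largest fold change of the called symbols and rests on few reads. It ranged from 0.198 to 3.33 CPM in WWTP clams (median 1.4), on 13 to 178 reads, and from 0.0283 to 0.312 CPM in reference clams (median 0.0757), on 2 to 29 reads. Of the WWTP clams 7 lay above all reference clams, and the 8th, individual 41, lay within their range. Reference individuals 20, 25 and 29 had 2 reads each, below the 3 reads that a count of 0 allows at 95% confidence, so the size of the change is uncertain (log2 FC 3.90 ± 0.612 SE, edgeR adjusted p = 0.00396). Within lanes it was 5.04 and 3.27 on the log2 scale.

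**Figure D2:**
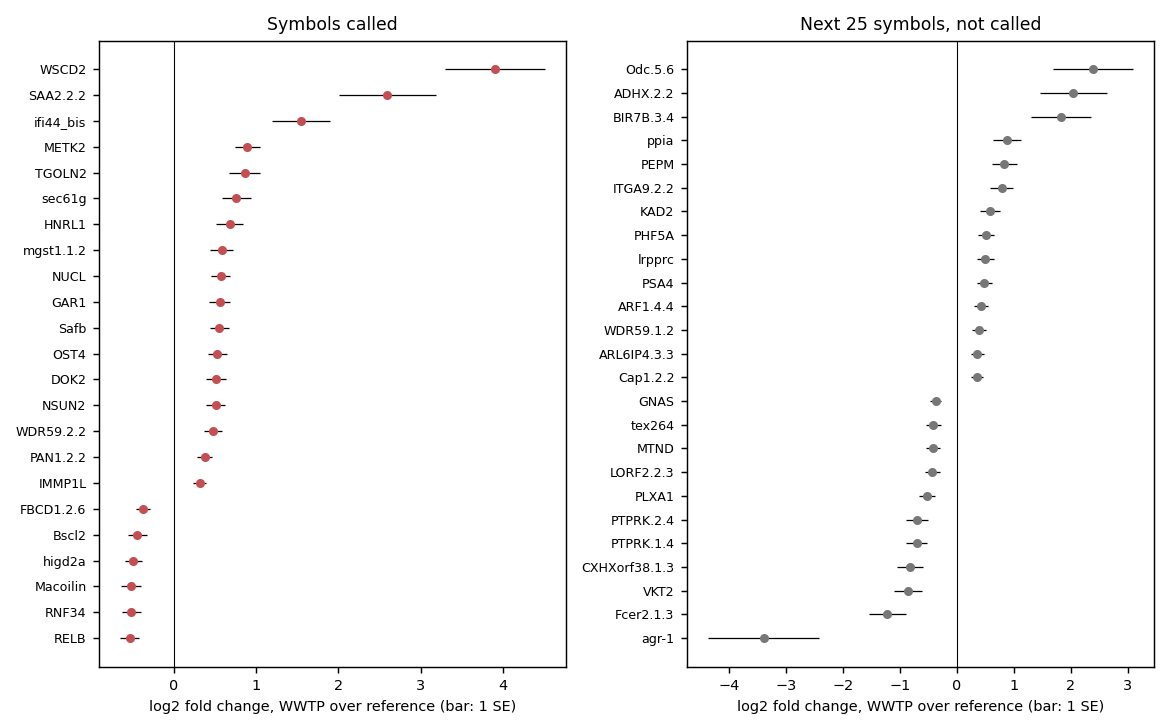
Log2 fold change of WWTP over reference clams with bars of 1 SE for the 23 called symbols (left) and for the next 25 symbols by p with a mean of at least 2 CPM, none of them called (right). Larger fold changes come with wider bars, as for WSCD2 (3.90, SE 0.612) and agr-1 (-3.39, SE 0.967).

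Just below the threshold stood 25 symbols, 14 higher and 11 lower, with edgeR adjusted p from 0.0514 to 0.105. Receptors and adhesion proteins were among them on both sides. The integrin ITGA9.2.2 ranged from 5.29 to 10.4 CPM in WWTP clams and from 2.83 to 6.06 CPM in reference clams, with 6 WWTP clams above all reference clams, and its further contig ITGA9.1.2, of 0.441 CPM on average, went the other way without a call. PLXA1, a plexin that binds semaphorins, was lower at 8.30 ± 1.71 against 12 ± 2.2 CPM (SD, n = 8; log2 FC -0.53). PTPRK, a receptor tyrosine phosphatase of cell contacts, was carried by 4 contigs that were all negative, from -0.71 to -0.21, of which 3 had unadjusted p below 0.05 and none was called. GNAS, the stimulatory G protein subunit that raises cyclic AMP, was lower at 6.84 ± 0.928 against 8.88 ± 1.38 CPM (SD, n = 8; log2 FC -0.38, edgeR adjusted p = 0.0594). VKT2, named for a Kunitz-type protease inhibitor, had medians of 14.7 against 34.1 CPM (log2 FC -0.86, edgeR adjusted p = 0.0727), and 6 WWTP clams were below all reference clams.

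Several of the 25 were uneven between clams. Odc.5.6, named for ornithine decarboxylase, which starts polyamine synthesis, ranged from 0.353 to 10.1 CPM in WWTP clams (median 3.47) and from 0.270 to 1.77 CPM in reference clams (median 0.582). Of the WWTP clams 6 lay above all reference clams and individuals 41 and 42 did not (log2 FC 2.39 ± 0.705 SE, edgeR adjusted p = 0.087). The other 5 Odc contigs ran from -0.96 to 0.23 on the log2 scale. BIR7B.3.4, a baculoviral-repeat protein of the family that restrains apoptosis, ranged from 3.28 to 19.9 CPM against 1.80 to 7.04 CPM (log2 FC 1.82 ± 0.528 SE, edgeR adjusted p = 0.0813), and the other 3 BIR7B contigs ran from -0.43 to 0.42. agr-1, agrin, a matrix protein, had a log2 FC of -3.39 (edgeR adjusted p = 0.0763) that rested on reference individual 30, at 51.2 CPM beside 0.282 to 1.29 CPM in the other 7; without that library its adjusted p was 0.951. The adenylate kinase KAD2 of mitochondria, the cyclophilin ppia and the mitochondrial RNA-binding protein lrpprc were higher without a call (log2 FC 0.58, 0.88 and 0.50).

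Without a symbol, the 2 higher and 2 lower called contigs with the smallest p at a mean of at least 5 CPM separated the sites. contig_33362 ranged from 15.4 to 26.5 CPM in WWTP clams (median 21.5) and from 7.62 to 12.2 CPM in reference clams (median 10.2), and runoff clams lay between at 14.7 ± 2.2 CPM (SD, n = 8; log2 FC 1.11 ± 0.126 SE, edgeR adjusted p = 0.000123). contig_08123 ranged from 10.1 to 17.1 CPM against 6.77 to 9.40 CPM (log2 FC 0.74, edgeR adjusted p = 0.000752). Among those that fell, LOC101864318.1.3 ranged from 14.2 to 21.1 CPM against 22.3 to 36.2 CPM, and contig_22156 from 4.80 to 7.46 CPM against 8.13 to 10.4 CPM (log2 FC -0.71 for each, edgeR adjusted p = 0.00432 for each). The 8 WWTP and 8 reference values of these 4 contigs do not overlap, and each was called in all fits that left out 1 library. The 4 were picked by small p from the same libraries, so this is no independent check.

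**Figure D3:**
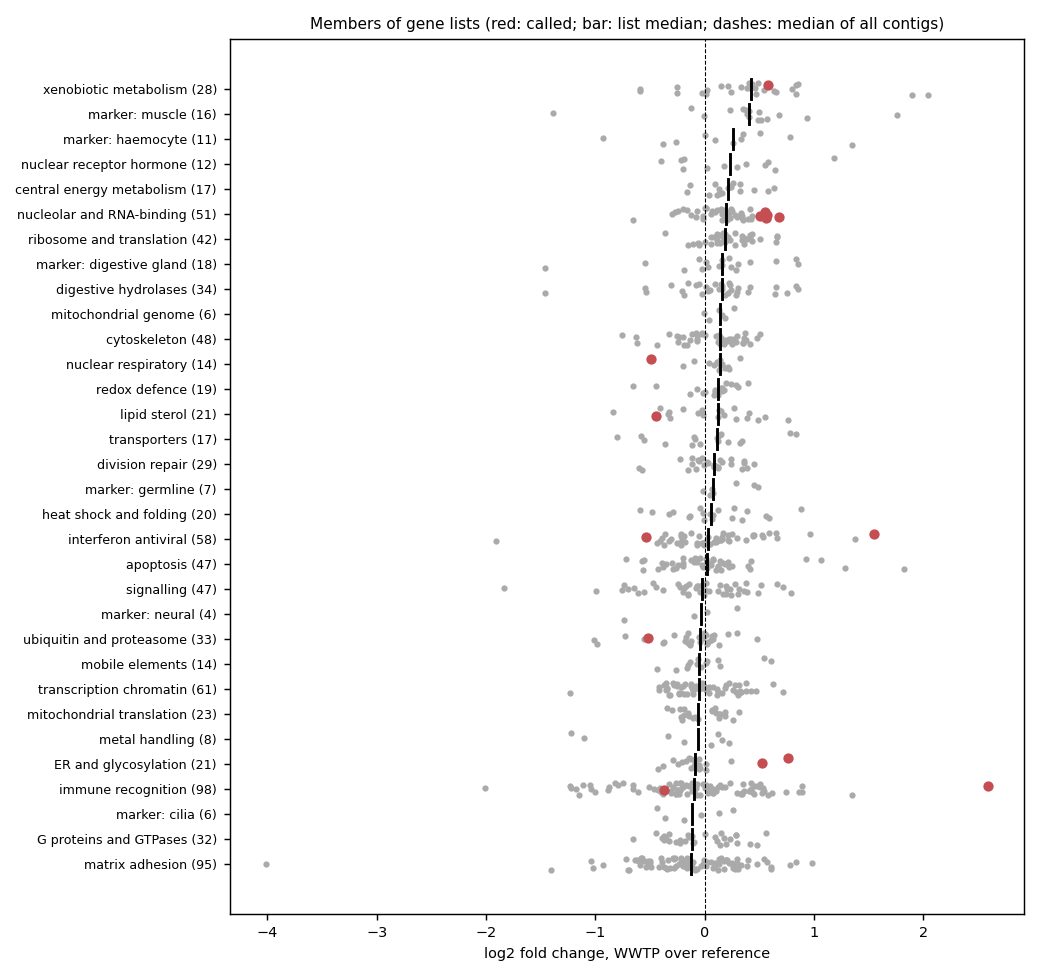
Log2 fold change of WWTP over reference clams for each tested member of 26 role lists and 6 marker lists, ordered by the list median (black bars), with called members in red and the median of all contigs as a dashed line. Called members lie in 8 of the lists, and the list medians run from -0.13 (matrix and adhesion) to 0.42 (xenobiotic metabolism).

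The remaining role lists held no called member. Over all contigs 7.77% were higher and 6.77% lower at unadjusted p below 0.05. Of 20 heat shock and folding proteins 6 were higher (30%) and 2 lower (10%) at this cut. Among them FKB1A, an FK506-binding prolyl isomerase, stood at 142 ± 21.4 against 112 ± 10.2 CPM (SD, n = 8; log2 FC 0.35, edgeR adjusted p = 0.118) and the relative FKBP8 at 38.0 ± 7.90 against 25.2 ± 6.30 CPM. Central energy metabolism (17 members) had a median of 0.22, with 88.2% of members positive, and 52.9% with scaling by totals alone. The 95 matrix and adhesion proteins had a median of -0.13. At unadjusted p below 0.05, 4 were higher (4.21%, beside 7.77% of all contigs) and 7 lower (7.37%, beside 6.77%). Among them NID2, nidogen, had the largest difference (log2 FC -4.02, SE 1.46), again with reference individual 30 highest, at 51.1 CPM. Of 61 transcription and chromatin proteins 6 were higher (9.84%) and 3 lower (4.92%) at the same cut. HDAC1, a histone deacetylase in this list, stood at 57.4 ± 7.97 against 41.5 ± 7.97 CPM (SD, n = 8, edgeR adjusted p = 0.106). Of 32 G proteins and small GTPases 2 were higher (6.25%) and 5 lower (15.6%) at this cut. Metal handling, with 8 members, had none with an unadjusted p under 0.05; the metallothionein MT stood at 294 ± 85.0 against 370 ± 89.4 CPM (SD, n = 8; log2 FC -0.33, edgeR adjusted p = 0.473) and the ferritin FRIS at 6020 ± 2210 against 5164 ± 1926 CPM. Of 19 redox proteins 1, the thioredoxin-like txndc12, was higher at unadjusted p below 0.05 (5.26%, beside 7.77% of all contigs). None was lower, beside 6.77% of all contigs. The 16 muscle markers summed to between 448 and 13693 CPM in WWTP clams (median 1099) and between 696 and 3823 CPM in reference clams (median 1207.5), and none was called. The highest sum was that of WWTP individual 33; the next WWTP clam, individual 41, had 3999 CPM. The median log2 FC of these markers was 0.41, and -0.39 without WWTP individual 33, when 1 of 16 was positive.

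Symbols carried by several contigs varied in how far their contigs kept together. Of 226 such symbols with 694 contigs 110 had all contigs of one sign. Many of the 226 had only 2 contigs, which share a sign easily, so this number does not measure agreement. FBCD1 (6 contigs, -0.89 to -0.22) and SUSD1, a protein with sushi domains (7 contigs, -0.58 to -0.21), were negative in every contig under all 4 scalings, of which 1 FBCD1 contig was called. With 1 library left out, 1 FBCD1 contig was positive in 1 of 24 fits and 1 SUSD1 contig in 2. The 5 contigs of znfx1, a helicase of antiviral defence, were positive under all 4 scalings and in all 24 fits that left out 1 library, without a call. MLR, the myosin regulatory light chain, and TPM, tropomyosin, also had 5 positive contigs each and no call, but 0 of 5 each were positive without WWTP individual 33, whose muscle markers were highest. SPI2 (14 contigs, median log2 FC 0.56, means of 36.9 to 1700 CPM over the 16 libraries) was positive in 13, with none called. CALM, calmodulin, was split with 9 contigs positive and 9 negative. SELW, selenoprotein W, was positive in all 5 contigs, and in 0 of 5 with scaling by totals alone.

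**Figure D4:**
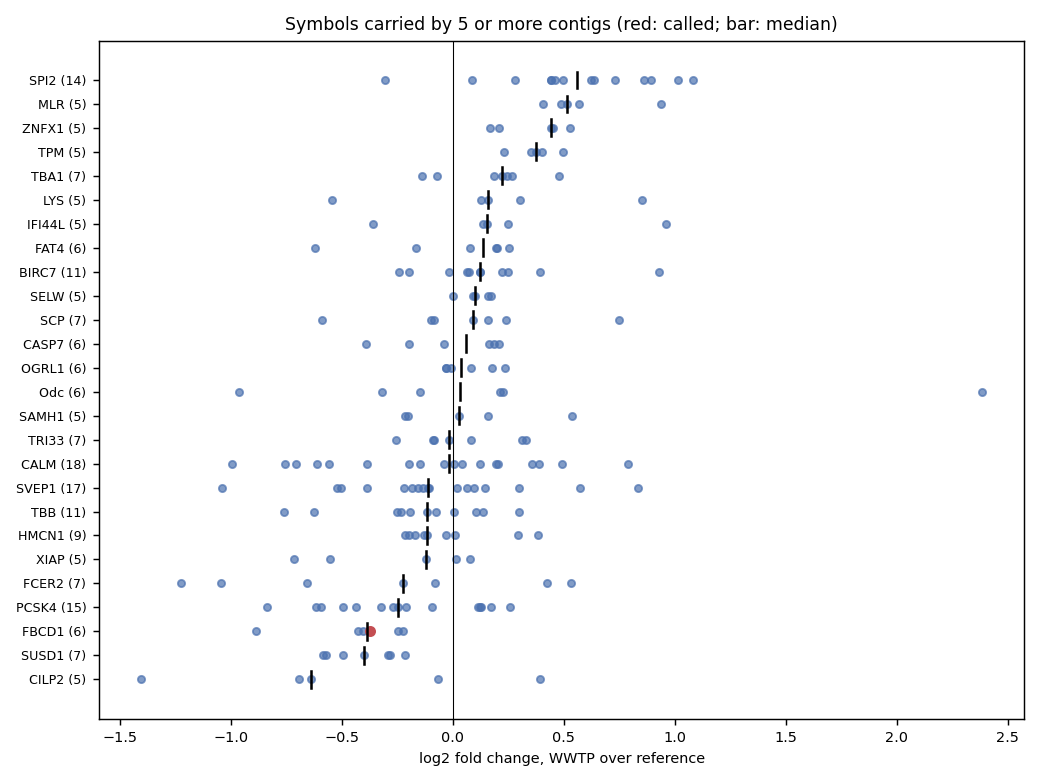
Log2 fold change of WWTP over reference clams for each contig of the symbols carried by at least 5 contigs, ordered by the median (black bars), with the number of contigs in brackets and the called contig in red. FBCD1 and SUSD1 lie wholly below 0, MLR, TPM, znfx1 and SELW wholly above 0, and CALM on both sides; without WWTP individual 33 MLR and TPM lie wholly below 0.

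The 10 symbols with the highest mean CPM, among them the mitochondrial CYTB.1.2, ND4 and COX1, the elongation factor EF1A and the egg yolk precursor Vg.2.2, were not called (edgeR adjusted p from 0.665 to 0.981). CYTB.1.2 stood at 27523 ± 7884 against 24711 ± 3871 CPM (SD, n = 8), and Vg.2.2 at 3089 ± 2772 against 2945 ± 1610 CPM.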

How the data were processed

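RNA was extracted by column kit (Promega) before TruSeq library preparation, per the labels' protocols. The deposited table holds raw read counts per contig in 24 columns, and no column was left out. The submitters' processing notes list BWA 0.7.12 and SAMtools 1.1. How contigs were assembled, named, counted or filtered is not given in the sources used here. Contigs and lists were chosen with earlier results of these data known. Contigs were filtered by filterByExpr on site (minimum count 10), and the 698 contigs removed held 0.00718% of counts. The 24 libraries were scaled by TMM and fitted together without covariates by edgeR 4.0.16 (robust quasi-likelihood, R 4.3.3; limma 3.58.1). SE is the log2 fold change divided by the root of the F statistic. The biological coefficient of variation was 45.8%. A count of 0 allows up to 3 reads, 0.0323 to 0.0792 CPM in the 16 libraries; this covers counting error only.

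The text names the called symbols, the next 25 with a mean of at least 2 CPM, up to 4 members per list, 2 higher and 2 lower without a symbol at a mean of at least 5 CPM, further contigs of these names, and the 10 highest by CPM. On simulated counts for 57593 contigs (WWTP against reference) the test recovered 16%, 54%, 74% and 90% of contigs changed by 1.5, 2, 4 and 8 times, with 0.847% of calls false. The changed contigs had a mean of at least 1 CPM, so recovery below that level was not simulated. The simulated counts were drawn independently for each contig, whereas in the clams the first principal component held 58.8% of the variance. The simulated rates, the share of false calls among them, may therefore not hold for the clams. The highest correlation between 2 of the 16 libraries was 0.977, and none was a copy. Alternatives are in the closing section, among them DESeq2 1.42.0. Library measures were tested by exact permutation over 12870 splits, and 70 splits within a lane.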

Additional observations from a re-analysis of the deposited data

Results flagged for a closer look

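Of 58 groups of 8 libraries checked, 5 had 1 clam far from the other 7 of its site, which chance gives in about 1 in 20 groups. WSCD2 in reference individual 30 was 0.312 CPM, and the next highest reference clam had 0.148 CPM. SAA2.2.2 in the same clam was 4.70 CPM, beside 1.74 CPM in the next. In reference individual 25, sec61g was 112 CPM, beside 79.3 CPM in the next, and GAR1 was 18 CPM, beside 12.2 CPM. DOK2 in reference individual 31 was 4.41 CPM, beside 3.62 CPM. In each case the far clam was the highest of the reference group.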

How the results depend on the processing

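The counts of 846 called contigs and 23 called symbols depended on the setting. They were 165 contigs and 3 symbols with scaling by library totals alone (WSCD2, RELB and Bscl2; 38 higher and 127 lower, against 584 and 262), 522 and 15 with upper-quartile factors, and 516 and 13 in a fit of the 16 libraries. Within lane 3 it was 0 and 0, within lane 4 it was 1 and 0, and at a threshold of 0.01 it was 66 and 2. The first principal component as a term gave 2649 and 69, DESeq2 2328 and 63, and limma-voom 2606 and 73. Other scalings, filters and the lane term gave counts within 1.5 times. Leaving out 1 library gave 206 to 1342 contigs and 5 to 35 symbols. The count was 206, 334, 365 and 500 contigs without WWTP individuals 46, 42, 38 and 48, and 218, 263, 394, 414, 460, 499 and 520 without reference individuals 31, 30, 22, 23, 20, 21 and 29. It was 1342 without reference individual 25 and 1297 without runoff individual 49. The cause was not tested. None of the 23 changed sign under these settings. The signs of contigs that share a symbol and the list medians with 1 library left out were also chosen after seeing the data; without WWTP individual 33 the muscle markers turned from 0.41 to -0.39 (median log2 fold change). Of the 23, 10 were called in the fit of the 16 libraries. The library total difference of -10.7 M ranged from -13.3 to -7.82 M with 1 library left out, at exact permutation p from 0.0193 to 0.129, and was under 0.05 without WWTP individuals 42 and 48 and reference individuals 20 and 21 (alternatives chosen after seeing the data). No paired analysis was possible because the numbering of replicates follows accessions, with no animal shared between sites. With 8 clams a site, changes below 2-fold were often missed on simulated counts.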

Other observations

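Across all 24 libraries the contigs most like WSCD2, by correlation of log2(CPM + 0.1), were contig_23118 (r = 0.87), Odc.5.6 (r = 0.86) and contig_08680 (r = 0.85). This is a description over clams of 3 sites that share the site differences. WSCD2 and Odc.5.6 were both highest of the runoff clams in individual 49, at 0.424 and 5.92 CPM, and both highest of the reference clams in individual 30, at 0.312 and 1.77 CPM. In WWTP clams individuals 33, 38, 46 and 47 held the 4 highest values of both, and individuals 41 and 42 the 2 lowest. These contigs were chosen after their values were seen.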
